A study of Sus scrofa with 12 samples.

Results

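The genes described here encode proteins that splice pre-mRNA or coat it: the SR proteins, the heterogeneous nuclear ribonucleoproteins (hnRNPs), the proteins of the small nuclear ribonucleoproteins (snRNPs), the SF3A and SF3B subunits and a relative of the splicing factor U2AF. They were taken by a rule on names, which was itself chosen with earlier results of these arrays known. It took all genes whose array symbol began with SRSF, SFRS, HNRNP, SNRP, SF3A, SF3B or U2AF with the number or letter that follows. This gave 35 genes read by 67 probes, out of 11905 named genes and 43769 probes in all. The 35 genes were 5 SR proteins, 12 hnRNPs, 9 snRNP proteins, 8 SF3 subunits and 1 U2AF relative, U2AF1L4. Of them, 22 were read by 1 probe and the others by up to 7 probes.

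The embryos were pig embryos recovered on day 9 after ovulation, from sows that differed in when they were mated. FE sows were inseminated while still lactating, at the oestrus that occurred then. SE sows, called skip-a-heat, were inseminated at the oestrus that came next. There were 3 sows in each group, and 5 male and 5 female embryos of each sow, sexed by PCR, were pooled apart, which gave 12 pools of RNA. Each pool was thus the average of 5 embryos of one litter. Since a sow gave both a male and a female pool, the sets below were not fully independent of one another. RNA was amplified as antisense RNA and labelled with the dyes Cy3 and Cy5, and each of 12 two-colour arrays carried 1 FE and 1 SE pool that matched in sex. There were 6 biological sets (3 male, 3 female), and every set was hybridised once and then again as a dye swap. Male sets 1 and 2 lay on slide 1, female sets 1 and 2 on slide 2, and male set 3 with female set 3 on slide 3.

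Splicing removes introns from the transcripts of the nucleus and joins the exons. The snRNPs recognise the ends and the branch point of the intron and build the spliceosome, with a ring of Sm proteins around the RNA of most of them. SR proteins mostly bind within exons and help nearby splice sites to be used, hnRNPs bind widely and often hold splice sites back, and the early embryo needs both as its own genome is transcribed.

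The values are ratios of FE and SE pools on a log scale whose base is not stated. They were read as log2, so that a ratio of 1 in size is taken as a 2-fold difference, and every fold given below rests on that reading. A set's value averages the first array with the sign-turned swap array. In the submitters' labels Cy3 went with FE and Cy5 with SE throughout, even on the arrays described as swaps, and the numerator of the ratio is not given. Whether FE or SE was higher therefore cannot be stated: a positive ratio has the sign of the first arrays, and signs can be compared between genes and sets. Single-channel intensities were not analysed here, so neither the level of a gene nor its brightness over background is known, and precision rests on the count of arrays. The p-values for FE against SE and for male minus female rest on the spread between these sets of pools. Those for differences between sets, also within slides, rest on the spread between the 2 arrays of a set, which held the same pools.

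The sets differed in how strongly their arrays correlated, and male set 1 was lowest. Over all genes, Pearson's r between the first and the sign-turned dye-swap array was 0.125 for male set 1 and 0.228 for female set 1. It was 0.385 in male set 2, 0.503 in female set 2, 0.709 in male set 3 and 0.758 in female set 3. Over the 35 splicing genes the same correlation was 0.28 in male set 1, 0.58 in female set 1 and between 0.80 and 0.95 in the other 4 sets. Both arrays of a set held the same pools and lay on the same slide, so these correlations do not describe how well a ratio holds between animals. They also fall where the ratios vary little, and the SD over all genes was smallest in male set 1, at 0.223. A low r alone thus does not show that a set was measured less well. The sign of the splicing genes was the same on both arrays for 20 of 35 in male set 1, 26 in male set 2, 31 in male set 3, 23 in female set 1, 33 in female set 2 and 30 in female set 3. Over all genes the share with the same sign was 49.5% to 65.5% per set.

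**Figure D1:**
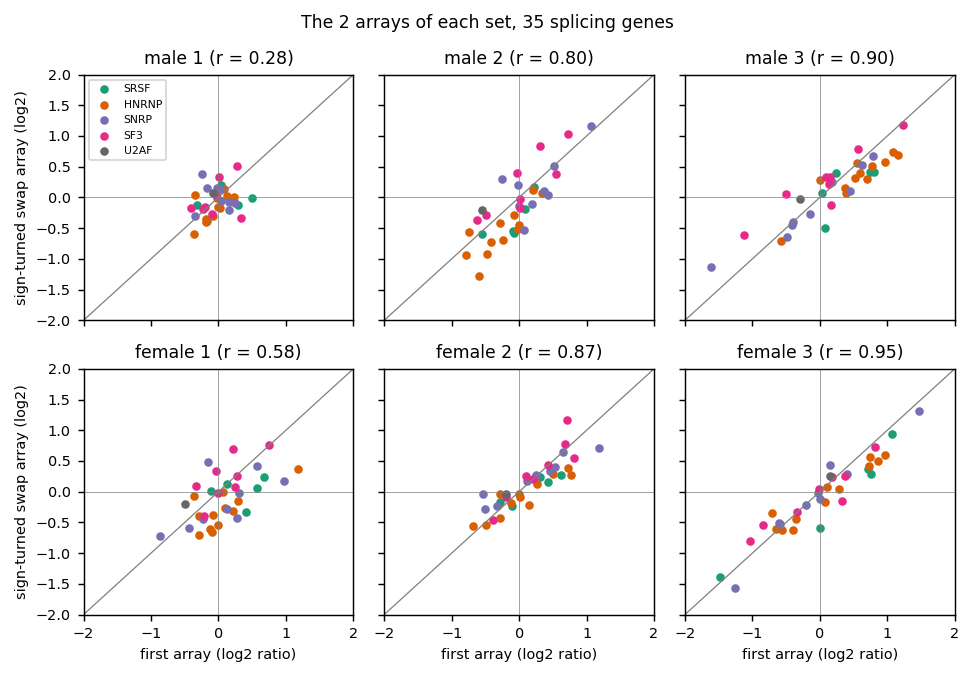
Each panel plots, for 1 of the 6 sets, the log2 ratio of the 35 splicing genes on the first array (horizontal) against the sign-turned dye-swap array (vertical), with points coloured by family and the line of equal values. The points of male set 1 lie in a small cloud around 0 (r = 0.28), and those of female set 3 follow the line (r = 0.95).

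No splicing gene was called as different between FE and SE embryos of both sexes. The limma fit on the 6 set ratios, with Benjamini-Hochberg adjustment over 11905 genes, called 0 of the 35 and 0% of all genes, and the smallest adjusted p of a splicing gene was 0.94, for SRSF4. With an unadjusted p under 0.05 there was 1 of 35, beside 5.06% of all genes. The mean ratios ran from -0.26 (HNRNPA3) to 0.37 (SRSF4), 18 positive and 17 negative, with a median of 0.0015 beside -0.0090 over all genes. None of the 35 had 1 sign in all 6 sets, beside 3.7% of all genes. Without male set 1 the count of splicing genes called was 0 as well.

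The intervals show what size of difference these sets could have missed. The 95% interval of the mean ratio lay within a 2-fold difference in either direction for all 35 splicing genes, as it did for 98.6% of all genes. It lay within a 1.5-fold difference for 25 of the 35 (71.4%), against 89.0% of all genes. The intervals of the splicing genes were thus wider than those of many genes on the array, and the sets behind them further apart.

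**Figure D2:**
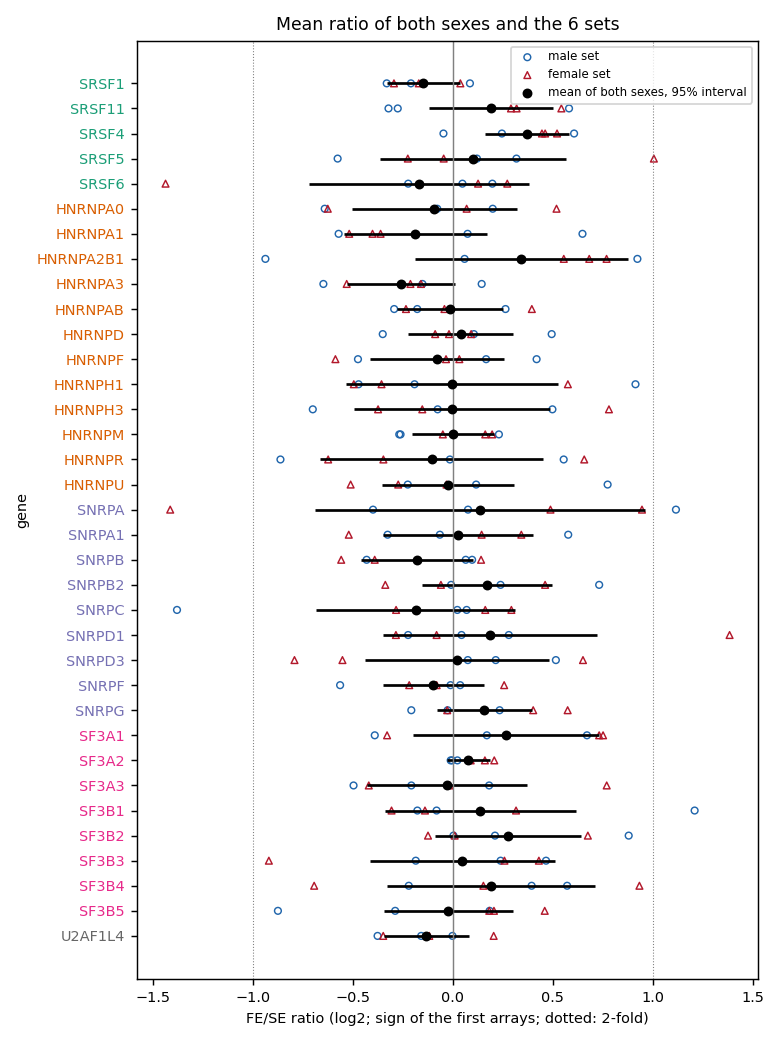
For each of the 35 splicing genes, the black point is the mean log2 ratio over both sexes with its 95% interval from limma, and open symbols are the 3 male (circles) and 3 female (triangles) sets. All intervals stay inside the dotted lines that mark a 2-fold difference, while 1 or more sets of SRSF5, SRSF6, SNRPA, SNRPC, SNRPD1 and SF3B1 lie outside them.

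The ratio did differ from set to set. The median splicing gene spanned 1.16 log2 units between its lowest and its highest set, against 0.47 for the median gene on the array. A moderated F test in limma over the 12 arrays, which sets the spread between sets against the spread between the 2 arrays of a set, called 33 of the 35 splicing genes at an adjusted p under 0.05. Of all genes it called 40.9%. Every hnRNP gene (12 of 12) and every snRNP gene (9 of 9) was called, with 7 of 8 SF3 genes, 4 of 5 SR genes and U2AF1L4. Not called were SRSF1, which was called once female set 2 was left out, and SF3A2. The test compares pools with pools, on the slides that carried them, and does not compare FE with SE, and the 35 genes were picked for study with earlier results of these arrays known.

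The count was similar where the measurement was made another way. Among genes with 1 probe, where no averaging over probes helps, 20 of 22 splicing genes were called beside 36.2% of all such genes. Taken probe by probe, 63 of 67 splicing probes were called, or 94% beside 37.7% of all probes. Without male set 1, whose arrays had the lowest correlation, 33 splicing genes were called beside 41.2% of all genes. Within slides, where only sets on the same slide were set against each other, 26 were called beside 34.5% of all genes. SRSF4, SRSF11, HNRNPA0, HNRNPM, SNRPB, SNRPF and SNRPG were the genes called over all sets and not by the joint F within slides. Of these, SNRPB did differ on slide 2 taken alone (limma adjusted p = 0.031).

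**Figure D3:**
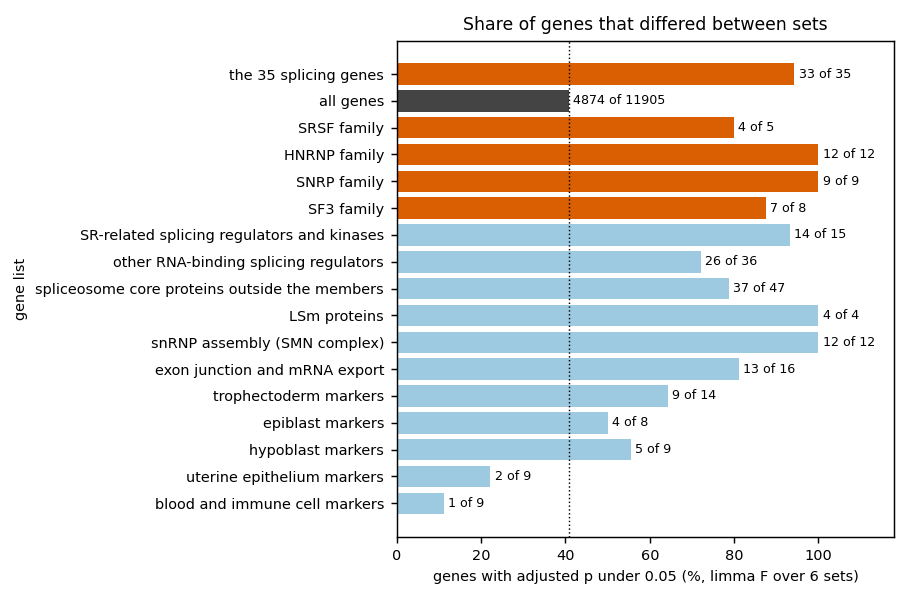
Bars give the share of genes, in percent, whose ratio differed between the 6 sets (limma F, adjusted p under 0.05) for the 35 splicing genes and their families (orange), all genes (dark) and other lists (blue), with counts beside each bar and a dotted line at the share of all genes. The splicing genes stand at 33 of 35 and the lists of uterine and blood markers at 2 of 9 and 1 of 9.

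The 6 sets did not repeat one pattern. Positive ratios were found for 15 of the 35 splicing genes in male set 1, 14 in male set 2, 25 in male set 3, 16 in female set 1, 19 in female set 2 and 18 in female set 3. Over all genes the share of positive ratios stayed between 45.8% and 50.8% in each set. Male set 3 was the set where the splicing genes leaned most to one side, with a median of 0.24 beside -0.02 over all genes. The SD over the splicing genes was 0.182 in male set 1, 0.364 in female set 1, 0.414 in female set 2, 0.463 in male set 2, 0.551 in male set 3 and 0.643 in female set 3. Differences over 1.5-fold were seen for 0 splicing genes in male set 1, 3 in female set 1, 6 in male set 2, 6 in female set 2, 11 in male set 3 and 12 in female set 3. Over all genes the share past 1.5-fold ran from 2.23% in male set 1 to 10.6% in male set 3.

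Some sets ran together and others opposed each other, here given as a description over 35 genes of shared slides and sows. Male set 2 and female set 2, on different slides, had r = 0.64 over the splicing genes (0.53 over all genes). Male set 2 and female set 3 had r = -0.60 over the splicing genes and -0.12 over all genes, with opposite signs for 26 of 35 (54.5% of all genes). Male sets 2 and 3 had r = -0.41 (-0.21 over all genes), with opposite signs for 27 of 35 beside 55.7% of all genes. Male set 3 and female set 3, which shared a slide, had r = 0.29.

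**Figure D4:**
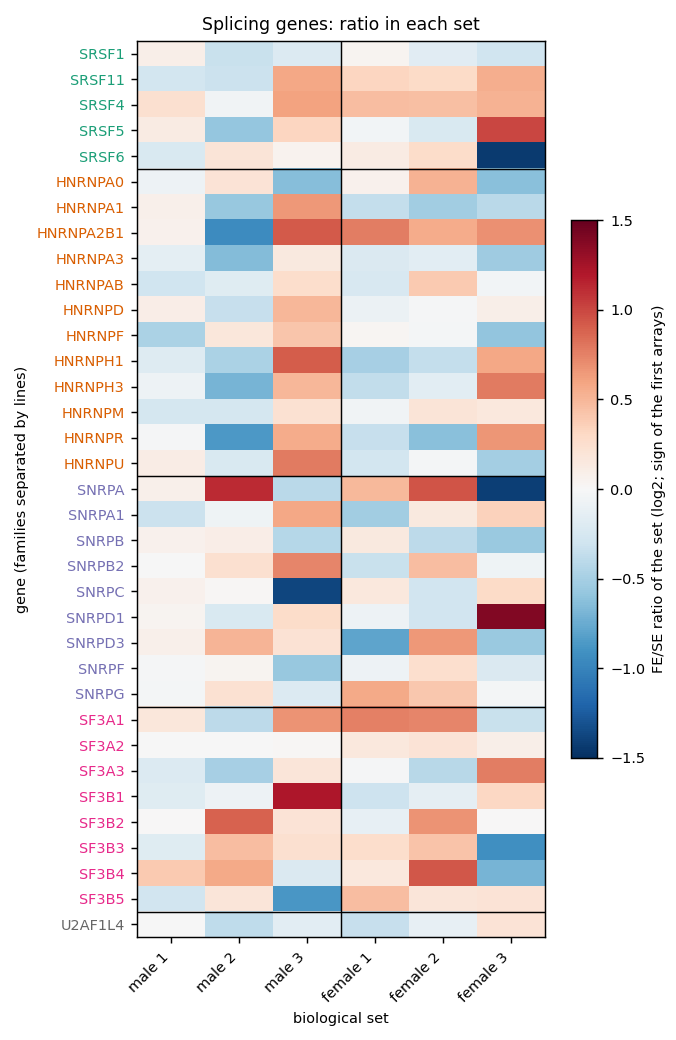
The colour of each cell is the log2 ratio of 1 splicing gene (rows, by family) in 1 of the 6 sets (columns), red for positive and blue for negative with the sign of the first arrays. The hnRNP rows are mostly blue in male set 2 and red in male set 3, where 2 and 11 of 12 were positive.

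The SR proteins carry repeats of arginine and serine and act on exons and splice sites. SRSF4, an SR protein also known as SRp75, had ratios of 0.25, -0.05 and 0.61 in male sets 1 to 3 and of 0.46, 0.45 and 0.52 in female sets 1 to 3. It was positive in 5 of 6 sets and just below 0 in male set 2, and the female sets lay close together inside the range of the male sets. The mean was 0.37 ± 0.24 (SD, n = 6 sets), with a 95% interval of 0.16 to 0.58. This was the largest mean of the 35 genes, and it did not pass the adjustment over all genes (limma adjusted p = 0.94). On single arrays the first array of each set was the higher, for example 0.68 against 0.24 in female set 1 and 0.09 against -0.19 in male set 2.

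SRSF1, among the first SR proteins described as splicing factors, stayed near 0. Its ratios were 0.09, -0.33 and -0.21 in male sets and 0.04, -0.17 and -0.29 in female sets, a mean of -0.15 ± 0.17 (SD, n = 6 sets). The sets of the sexes overlapped, and SRSF1 was one of the genes that did not pass the test between sets (adjusted p = 0.14). Its first and dye-swap arrays lay 0.53 apart in the median set, more than the distance between its lowest and highest set of 0.42.

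SRSF6 and SRSF5, both SR proteins that regulate alternative exons, had the largest F between sets among the SR genes. SRSF6 was at -0.22, 0.20 and 0.05 in male sets. Female sets 1 and 2 stood at 0.13 and 0.27 and female set 3 at -1.44. A single set thus stood far below the other 5, on both arrays (-1.48 and -1.40) and in both probes (-1.67 and -1.20), and the limma adjusted p between sets was 5.5e-06. SRSF5 went the other way in female set 3, at 1.01, with -0.05 and -0.23 in female sets 1 and 2 and 0.12, -0.58 and 0.32 in male sets (adjusted p between sets = 2.2e-05). SRSF11, the remaining member, ranged from -0.32 to 0.58. It was positive in all female sets and in male set 3, and negative in male sets 1 and 2.

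Among the hnRNPs, which package nascent transcripts, the direction of the family followed the set. Of 12 hnRNP genes, 4 were positive in male set 1, 2 in male set 2, 11 in male set 3, 3 in female set 1, 4 in female set 2 and 6 in female set 3. The median hnRNP gene stood at -0.41 in male set 2 and at 0.50 in male set 3, and between -0.22 and 0.02 in the other sets. Male sets 2 and 3 were thus at opposite ends for this family, with no agreement within the sex. Over both sexes, 3 of 12 mean ratios were positive and 9 negative, and 0 passed the test of FE against SE.

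HNRNPA2B1, which binds RNA for splicing and for transport out of the nucleus, had ratios of 0.06, -0.94 and 0.92 in male sets and of 0.77, 0.55 and 0.68 in female sets. All female sets were positive and close together in the gene mean, while the male sets held both its lowest and its highest value. The mean was 0.34 ± 0.69 (SD, n = 6 sets) with an adjusted p of 0.97 for both sexes in limma. Its 5 probes gave means between 0.28 and 0.39 and shared 1 sign in 5 of 6 sets, so that the swing from male set 2 to male set 3 was read alike by all of them, from -1.13 to -0.73 in the former and from 0.85 to 0.97 in the latter. They spread most in female set 3, from 0.09 to 1.56, where the gene mean is less sure.

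HNRNPA3, a close relative in the A/B group, had the lowest mean of the 35 genes. It stood at -0.15, -0.65 and 0.14 in male sets and at -0.21, -0.16 and -0.53 in female sets, a mean of -0.26 ± 0.29 (SD, n = 6 sets), with 5 of 6 sets negative and an adjusted p of 0.96. Its 3 probes disagreed, with means from -0.67 to 0.04 and 1 sign in only 1 set, so the gene mean is uncertain. Genes of the A/B group are alike in sequence and have many processed copies, and the specificity of the probes was not checked here.

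HNRNPR and HNRNPH1 had the largest F between sets among the hnRNPs. HNRNPR, a relative of SYNCRIP that binds mRNA, had ratios of -0.01, -0.86 and 0.55 in male sets and -0.35, -0.62 and 0.66 in female sets, low in sets 2 and high in sets 3 of both sexes (adjusted p between sets = 8.0e-06). HNRNPH1, which binds runs of G and can favour or repress exons, was at -0.19, -0.47 and 0.91 in male sets and -0.50, -0.36 and 0.58 in female sets (adjusted p between sets = 1.1e-05). Both genes were positive in the 2 sets of slide 3 and negative in the other 4 sets. All 7 HNRNPH1 probes were positive in male set 3, from 0.50 to 1.17, and they ran from -0.21 to 1.41 in female set 3. HNRNPH3, a shorter relative, was likewise positive only in male set 3 (0.50) and female set 3 (0.78).

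HNRNPU, a large hnRNP that also binds the nuclear matrix and DNA, split the sets of slide 3. It was at 0.12, -0.23 and 0.77 in male sets and -0.27, -0.03 and -0.51 in female sets. HNRNPA1, which represses splice sites, split them as well, with male set 3 at 0.65 and female set 3 at -0.40. HNRNPF, a relative of HNRNPH1 that also binds runs of G, stood at 0.42 and -0.59 in these sets. On slide 3 the male ratio of these 3 genes was thus positive and the female ratio negative. The remaining hnRNP genes were HNRNPD, which binds AU-rich elements of mRNA, and HNRNPA0, HNRNPAB and HNRNPM, with means from -0.09 to 0.04.

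**Figure D5:**
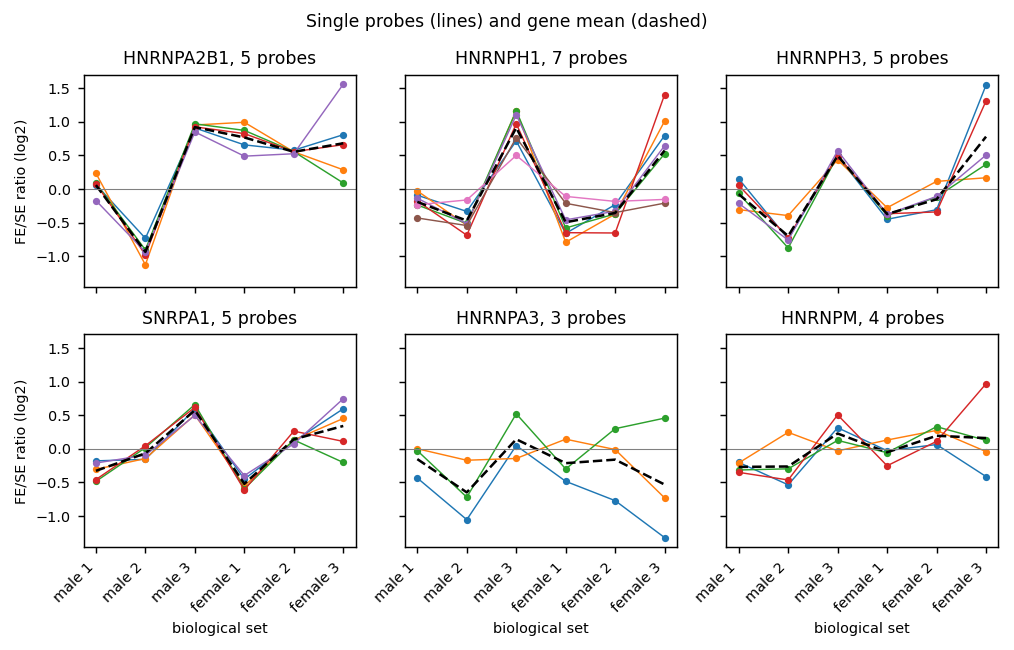
Lines are the log2 ratios of single probes over the 6 sets for 6 splicing genes, and the dashed line is the gene mean. The 5 probes of HNRNPA2B1 and the 7 of HNRNPH1 follow each other across most sets, and the 3 probes of HNRNPA3 spread from -1.32 to 0.46 in female set 3.

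The snRNP genes encode the Sm ring (here SNRPB, SNRPD1, SNRPD3, SNRPF and SNRPG) and proteins of single particles (SNRPA and SNRPC of the U1 snRNP, SNRPA1 and SNRPB2 of the U2 snRNP). SNRPA, which binds U1 RNA and so belongs to the particle that recognises the start of the intron, had the widest spread of the 35 genes. Its ratios were 0.08, 1.12 and -0.40 in male sets and 0.49, 0.95 and -1.41 in female sets, a mean of 0.14 ± 0.94 (SD, n = 6 sets). Sets 2 of both sexes were high and sets 3 of both low, the reverse of HNRNPR. Its adjusted p between sets was 3.6e-06, and the 2 arrays of female set 3 gave -1.26 and -1.56.

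SNRPC, the other U1 protein here, did not share this order. It stood at -1.38 in male set 3 and between -0.28 and 0.29 in the other 5 sets. SNRPD3, an Sm protein, was at 0.07, 0.52 and 0.21 in male sets and at -0.79, 0.65 and -0.55 in female sets, with an adjusted p between sets of 6.9e-06. SNRPD1, also an Sm protein, was at 1.38 in female set 3 and between -0.28 and 0.28 elsewhere. Genes for proteins of 1 ring thus had RNA ratios of opposite sign in the same set. SNRPD3 was at -0.55 and SNRPD1 at 1.38 in female set 3, each read by 1 probe.

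SNRPG and SNRPB, also Sm genes, had the smallest p for both sexes among the snRNP genes, and neither passed the test. The former was at -0.03, 0.23 and -0.21 in male sets and 0.57, 0.40 and -0.03 in female sets, a mean of 0.16 ± 0.30 (SD, n = 6 sets; limma adjusted p = 0.97). The latter was at 0.06, 0.10 and -0.43 in male sets and 0.14, -0.39 and -0.56 in female sets, a mean of -0.18 ± 0.31 (SD, n = 6 sets; limma adjusted p = 0.97). Each gene had 3 positive and 3 negative sets, and the sexes overlapped. SNRPA1, SNRPB2 and SNRPF had means of 0.03, 0.17 and -0.10.

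The SF3A and SF3B subunits belong to the U2 snRNP and hold it at the branch point. SF3B1, which contacts the branch point and is the largest of them, was at 1.21 in male set 3 and at 0.32 in female set 3, with -0.18 and -0.08 in the other male sets and -0.31 and -0.14 in the other female sets. It was thus positive only on slide 3, like HNRNPH1 (adjusted p between sets = 1.6e-05). SF3B4, a subunit that binds RNA near the branch point, ran the other way, at 0.39, 0.57 and -0.22 in male sets and 0.15, 0.93 and -0.69 in female sets, negative only on slide 3 (adjusted p between sets = 1.5e-05). The RNA ratios of SF3B1 and SF3B4, each read by 1 probe, therefore did not move together in these pools.

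SF3B2, another subunit of the SF3B complex, had the largest mean of the SF3 genes. It was at 0.00, 0.88 and 0.21 in male sets and -0.12, 0.68 and 0.01 in female sets, a mean of 0.28 ± 0.41 (SD, n = 6 sets; limma adjusted p = 0.96), and most of it came from sets 2. SF3A2, a subunit of SF3A, was the steadiest of the 35 genes, at 0.00, -0.01 and 0.02 in male sets and 0.16, 0.21 and 0.09 in female sets, a mean of 0.08 ± 0.09 (SD, n = 6 sets). Its range over the sets, 0.22, was no wider than the median distance of 0.23 between the 2 arrays of a set, and its adjusted p between sets was 0.75. SF3A1, SF3A3 and SF3B3 had means of 0.27, -0.03 and 0.05.

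U2AF1L4, a relative of the U2AF subunit that reads the end of the intron, was at 0.00, -0.38 and -0.16 in male sets and -0.35, -0.12 and 0.20 in female sets. Its mean was -0.13 ± 0.22 (SD, n = 6 sets; limma adjusted p = 0.97), and only female set 3 was positive in the gene mean. Its 2 probes had means of -0.19 and -0.07, and opposite signs in male set 1 and female set 2.

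Within each sex the same fit called 0 of all 11905 genes, the splicing genes included. In male embryos 0 of 35 splicing genes passed and 0 had an unadjusted p under 0.05, beside 2.91% of all genes, with a median ratio of 0.0074. In female embryos 0 passed and 1 had an unadjusted p under 0.05, SRSF4, beside 4.66% of all genes, with a median of 0.0068. SRSF4 had means of 0.27 ± 0.33 in males and 0.48 ± 0.04 in females (SD, n = 3 sets each). The genes with the next smallest p were SF3B5 and SF3B2 in males, at -0.33 ± 0.53 and 0.36 ± 0.46, and SF3A2 and SNRPG in females, at 0.15 ± 0.06 and 0.32 ± 0.31 (SD, n = 3 sets each). The limma adjusted p of these genes was 1.00 in males and 0.999 in females.

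The ratio of males was set against that of females, since their levels were never compared on 1 array. In the limma fit 0 splicing genes passed, as did 0 of all 11905 genes. Of the splicing genes 0 had an unadjusted p under 0.05, beside 2.1% of all genes. The smallest p was that of SF3B5, a small SF3B subunit, at -0.29, 0.18 and -0.88 in male sets and 0.46, 0.18 and 0.21 in female sets. The sexes overlapped at the value of 0.18. The male minus female difference was -0.61 (95% interval -1.26 to 0.04; limma adjusted p = 0.999), and on slide 3, the one slide with both sexes, it was -1.08. For HNRNPU the difference was 0.49 (95% interval -0.17 to 1.15) and 1.29 on slide 3, and for SF3A2 it was -0.15 (95% interval -0.37 to 0.07) and -0.07 on slide 3. The interval lay within a 2-fold difference for 16 of the 35 genes, beside 10254 of all 11905 genes. Differences of that size between the sexes could thus have been missed for the other splicing genes. Apart from slide 3, slide and sex cannot be told apart.

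Sets on the same slide differed too. Each set held 1 FE and 1 SE pool, and these tests rest on the spread between the 2 arrays of a set. They therefore do not show a difference that repeats between animals or between the sexes. On slide 3, male set 3 and female set 3 differed at 20 of the 35 splicing genes, 14 higher in the male and 6 lower, beside 25.6% of all genes called. On slide 1, male sets 1 and 2 differed at 16 genes, 9 higher in set 1 and 7 lower, beside 13.4% of all genes. On slide 2, female sets 1 and 2 differed at 9 genes, 3 higher in set 1 and 6 lower, beside 14.2%. The largest of these differences on slide 3 were SNRPC, at -1.67 for male minus female, and SRSF6, at 1.49, with limma adjusted p of 3.8e-06 and 4.7e-06. SRSF11 was among the genes called over all sets and not within slides, with differences of 0.05, 0.03 and 0.04 on slides 1 to 3 (limma adjusted p = 0.96).

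Splicing genes outside the name rule were counted from 6 lists of other splicing genes. Of the SR-related regulators and kinases 14 of 15 measured genes differed between sets, of other RNA-binding regulators 26 of 36, of core spliceosome proteins 37 of 47, of LSm proteins 4 of 4, of the SMN complex and snRNP assembly 12 of 12, and of the exon junction complex and mRNA export 13 of 16. These shares too lay above the 40.9% of all genes. None of the lists held a gene that passed for FE against SE of both sexes (smallest limma adjusted p of 0.94), and their medians ran from -0.05 for snRNP assembly to 0.13 for LSm proteins. With an unadjusted p under 0.05 for both sexes there were 1, 3, 7, 1, 3 and 0 genes in the order given, beside 5.06% of all genes.

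DDX39B, an RNA helicase that works with U2AF and in mRNA export, had the largest F between sets of the core list. Its ratios were 0.51, 1.60 and 0.58 in male sets and 0.05, 1.88 and -1.30 in female sets, high in sets 2 of both sexes as SNRPA was. CLK4, a kinase of SR proteins, stood at 0.22, -0.73 and 0.96 in male sets and -0.20, -0.42 and 0.95 in female sets, low in sets 2 and high in sets 3 as HNRNPR was. PCBP2, a protein that binds runs of C, was at 0.08, 0.92 and 0.40 in male sets and 0.02, 0.61 and -1.15 in female sets.

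Markers of the tissues an embryo of this age holds, and of the uterus and blood, were read against the 40.9% of all genes that differed between sets. Of 14 trophectoderm markers 9 differed (64.3%), with set medians of 0.11, 0.12 and -0.03 in male sets and 0.13, 0.15 and -0.22 in female sets. The keratin KRT19 was at 0.53, 0.13 and -2.55 in male sets and 0.41, 0.98 and -1.19 in female sets, lowest in the 2 sets of slide 3, where the spread of the splicing genes was widest. KRT8 was also lowest there, at -1.73 and -0.77. CDX2, GATA3, KRT18 and ETS2 were lowest in these 2 sets too, with CDX2 at -0.16 and -0.68 and GATA3 at 0.12 and -0.42. Some markers of this list did not follow: TFAP2C was highest in female set 3, at 1.55, though at -0.29 in male set 3. GATA2 was at 0.28 in male set 3, and TEAD4 was at 0.20 in female set 3. Of the epiblast markers 4 of 8 differed between sets (50%) and of the hypoblast markers 5 of 9 (55.6%), both near the share of all genes. Of the uterine epithelium markers 2 of 9 did (22.2%) and of the blood and immune markers 1 of 9 (11.1%), both below it. The 2 uterine markers were MSX1, from -0.28 to 0.28, and UPTI, which varied widely. UPTI was at -0.05, 0.38 and -1.47 in male sets and 0.52, 2.14 and -1.22 in female sets. The ratios do not show whether a marker was present at all, and the part of tissue composition in the ratios of the splicing genes was not tested. In pooled embryos, fewer cells of a type and less RNA per cell cannot be told apart.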

How the data were processed

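The authors' deposited table gives log ratios, 1 for each probe on each array, from -4.99 to 5.97. The deposited values were taken as log2, an assumption that the range does not settle. For the log base, background correction, normalization and numerator, nothing is given in the sources used here. Array medians lay within 0.0108 of 0, and the SD over probes was 0.333 to 0.472 per array. Of 43794 probes, 25 without a value on every array were left out. The platform's gene table gave 1 symbol for 18110 probes and none for 25659, and 230 symbols were updated through pig RefSeq names, among them 3 of the 36 splicing symbols (SFRS to SRSF), which left 35 genes.

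Set-to-set deviations of first arrays had r = -0.728 with those of the swap arrays as deposited, so the swap arrays' signs were turned. This fixes relative, not absolute, direction. Probes were averaged per gene and the 2 arrays per set. Set ratios were fitted in limma 3.58.1 (R 4.3.3; 1 mean per sex, prior degrees of freedom 2.29), with adjustment over all 11905 genes at 0.05. Differences between sets were tested over all 12 arrays, with array role (first or swap) in the model (prior degrees of freedom 5.23). The code was tested on simulated data.

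The genes, lists and rules were chosen with earlier results of these data known. By rule, each family's 2 genes of smallest p for both sexes and 2 of largest F are given by set, with the 3 of smallest p per sex and for the difference, and 1 gene of each kind per other list; further genes were picked after their values were seen. Alternatives were single array roles, no turned sign, other probe summaries, centred and scaled arrays, robust eBayes, slide or set number as a block, and each set left out in turn.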

Additional observations from a re-analysis of the deposited data

Results flagged for a closer look

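All 35 splicing genes were screened for a set that stood far from the other 5. For 3 of them the gap to the nearest set, as a share of the whole range over the 6 sets, was above Dixon's 95% critical value. The same screen found such a set for 898 of 11905 genes (7.54%), so the count is near that of all genes. Chance flags about 1 in 20 groups. SRSF6 was at -1.44 in female set 3, with the nearest set at -0.22 and a gap of 0.710 of the range. SNRPD1 was at 1.38 in female set 3, with the nearest set at 0.28 and a gap of 0.662. SNRPC was at -1.38 in male set 3, with the nearest set at -0.28 and a gap of 0.655. All were read on slide 3, whose sets had the widest spread over the splicing genes. The 2 arrays of the set had the same sign for each gene, at -1.48 and -1.40 for SRSF6, 1.46 and 1.31 for SNRPD1, and -1.62 and -1.14 for SNRPC. What set these pools apart was not tested.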

How the results depend on the processing

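For FE against SE of both sexes, the 0 splicing genes called stayed 0 in all settings but the unadjusted p and the one without turned signs. Over all genes, 5 were called on first arrays alone, 2 on swap arrays alone, 30 with the 12 arrays as separate values, 2 with one row per probe and 602 with an unadjusted p under 0.05 (1 splicing gene). For males 1 was called on swap arrays alone, 1 with separate arrays and 346 with an unadjusted p, and for females 1, 11 and 555 (1 splicing gene in the last). For male minus female 250 had an unadjusted p under 0.05. With no sign turned, a ratio that reverses with the swap cancels in the mean of a set's 2 arrays. What both arrays share as deposited is kept, so this setting does not compare FE with SE. It called 4547 genes over both sexes (18 splicing genes), 2329 over males (9) and 1752 over females (7). SRSF1 then was at 0.25 and SF3B2 at -0.069 (males -0.10), and male minus female was at -0.013 for HNRNPU and 0.059 for SF3A2. All were of the opposite sign to the main value, but they are not FE and SE ratios. What lay behind the calls with no sign turned was not tested. SRSF1 also turned to 0.10 on first arrays alone, and SF3A2 to -0.060 on swap arrays alone. With slide as a block the median male minus female ratio of the splicing genes was 0.20. Between sets, no term for array role gave 2797 genes (26 splicing genes), and genes with 1 probe alone gave 20 splicing genes. With the 25659 probes without a symbol added to the 11905 genes, 13132 of these genes and probes together were called. That setting was chosen after seeing the data, like the 1-probe and within-slide counts. Leaving out 1 set left 30 to 33 splicing genes, beside 32.0% to 41.2% of all genes: HNRNPD, SNRPF and SNRPG were lost without male set 3, SNRPD1 and U2AF1L4 without female set 3, SRSF4 without male set 2 and SNRPF without female set 2, where SRSF1 gained a call. With no term for array role HNRNPA3, HNRNPAB, HNRNPM, SNRPF, SNRPG, SRSF4 and U2AF1L4 were lost, beside 23.5% of all genes called.

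Same-numbered male and female sets had r of 0.0093, 0.38 and 0.28 between their deviations. The highest r of male sets 1 to 3 with a female set of another number was 0.010, 0.022 and -0.024. Same-numbered sets 2 and 3 were thus more alike, and whether they shared sows was not tested. The labels do not say that a number marks a shared sow, so the numbers were not taken to pair the sets. The replicate block, as a random term with a correlation of 0.12 or as a fixed term for male minus female, called 0 splicing genes, and changed no call. Depth of signal over background was not analysed here.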

Other observations

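Among splicing genes outside the name rule, the gene of smallest p for both sexes in each list did not pass the test of FE against SE (limma adjusted p of 0.94 to 0.96), although some had ratios of 1 sign in most sets. RBM6, an RNA-binding regulator of splicing, was positive in all 6 sets, from 0.01 in male set 2 to 0.99 in female set 3, with a mean of 0.40 ± 0.36 (SD, n = 6 sets). CLNS1A, a chaperone of Sm proteins, was negative in all 6, from -0.72 in female set 1 to -0.05, with a mean of -0.31 ± 0.28. BUD13, a subunit of the RES complex, was positive in 5 of 6 sets with a mean of 0.24 ± 0.17, LSM6 of the LSm ring in 5 of 6 with 0.25 ± 0.20, CLK2, a kinase of SR proteins, in 5 of 6 with 0.21 ± 0.16, and SMG5, a factor of nonsense-mediated decay, in 5 of 6 sets with 0.12 ± 0.12. These genes were named for their small p, so their signs are a description.

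Between sets, LSM3 was at 0.66, -0.00 and 0.52 in male sets and 0.46, 0.46 and -0.90 in female sets, and thus negative in female set 3 while LSM6 stood at 0.46 there. NCBP1, the large subunit of the nuclear cap-binding complex, was at -1.27 in female set 3 and between -0.29 and 0.24 in the other sets. THOC3, a subunit of the THO complex in mRNA export, ran from -0.59 in male set 1 to 1.01 in female set 2. All 3 differed between sets in limma, with adjusted p of 4.1e-05, 3.0e-05 and 1.2e-05.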
